A study of Mus musculus with 2 samples.

Results

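The genes described here are the erythropoietin (Epo) receptor Epor, its kinase Jak2, the transcription factors Stat5a and Stat5b, and 6 genes that STAT5 switches on or that restrain the pathway: Cish, Socs2, Socs3, Pim1, Ptpn6 and Sh2b3. They were chosen by name and found by Ensembl gene identifier, and all 10 of 10 were among the 43346 genes of the tables. RNA selected for polyA tails was sequenced from MEL, an immortalized mouse erythroleukemia cell line, exposed to 2% dimethyl sulfoxide (DMSO) over 5 days. The single group had 2 libraries with the labels' biological replicate numbers 1 and 2, which name the same cell sample, so separate cultures are not established by the labels. No untreated cells were analysed here, and each value is therefore a level in treated cells and not a response. Replicate 1 held 26149725 estimated reads and replicate 2 held 14149299, and a gene without reads could have reached 0.115 and 0.212 CPM (counts scaled to a common library size) at most, which is 3 counts and covers counting error only.

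Epo is the hormone that keeps red cell precursors alive and dividing. It brings together receptor chains that have no enzyme activity of their own; JAK2, bound to the inner part of the receptor, then phosphorylates itself, the receptor and STAT5, and STAT5 enters the nucleus and binds DNA as a dimer. CISH and the SOCS proteins, made in response, act back on the receptor or the kinase, while the phosphatase SHP-1 (from Ptpn6) and the adaptor LNK (from Sh2b3) also limit the signal. MEL cells come from mice infected with the Friend virus complex, one of whose envelope glycoproteins is known to bind and activate the Epo receptor. DMSO is used to start hemoglobin synthesis in them.

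The first question was at what level each step of the pathway was present. All 10 genes had at least 1 TPM (read abundance per unit of transcript length, set to a fixed total per library) in both libraries, a level reached by 45.5% of the 21474 protein-coding genes. Their median level was 20.9 TPM in replicate 1 and 22.9 in replicate 2, against 0.46 and 0.66 over protein-coding genes, and 5 of the 10 lay above the median of detected protein-coding genes (13.8 and 15.9 TPM) in both libraries. By mean TPM the order was Epor, Cish, Pim1, Ptpn6, Jak2, Stat5b, Stat5a, Socs2, Sh2b3 and Socs3. Of the 9 neighbouring pairs in that order, 5 had ranges that overlapped between the libraries (Epor and Cish, Cish and Pim1, Ptpn6 and Jak2, Stat5b and Stat5a, Stat5a and Socs2), so those neighbours were not set apart by level. The other 4 pairs had ranges that did not overlap. With 2 libraries no test was made of any of these orders, and the SD (n = 2) is the only measure of spread.

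**Figure D1:**
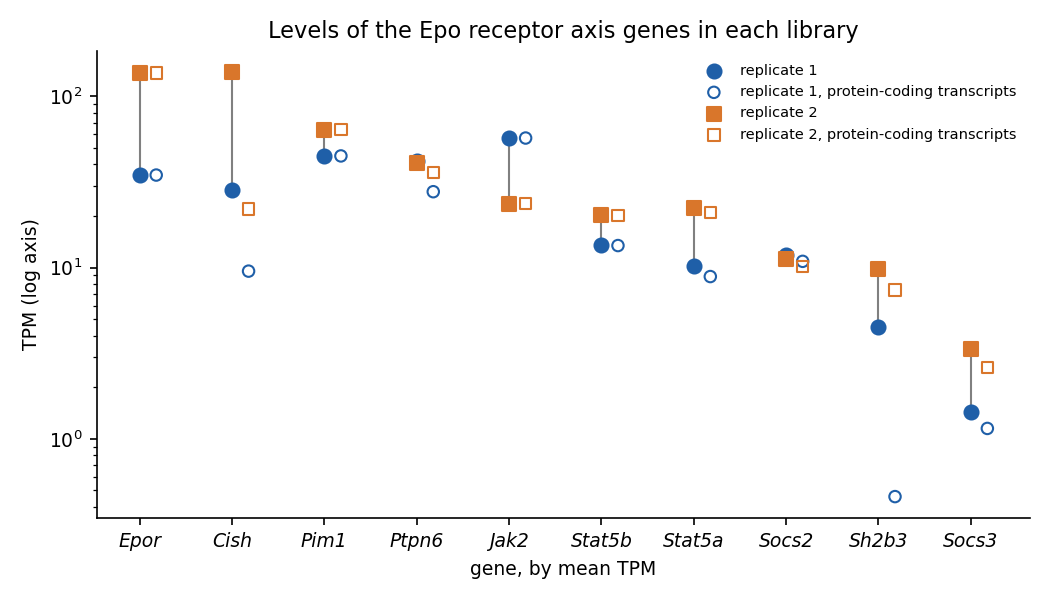
Level of each gene in TPM on a log axis, with filled circles for replicate 1 and filled squares for replicate 2 joined by a line, and open symbols for the sum over protein-coding transcripts alone. Epor and Cish have the widest spread of whole-gene levels in TPM, Jak2 is the gene with a clearly higher circle, and the open symbols of Cish in both libraries and of Sh2b3 in replicate 1 lie far below the filled ones.

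The libraries themselves differed along a known property of transcripts, and this touches every ratio given below. The log2 ratio of replicate 2 over replicate 1 was computed from estimated reads with TMM scaling, a method that aligns the bulk of genes, and a prior count of 1. It has no test, since 1 library stands against 1. Over all genes this ratio was higher the richer the transcripts were in GC. The GC content of a gene was the mean over its transcripts, weighted by their TPM. Short models with high TPM therefore weigh more in it than their reads do. The smoothed trend was -0.76 at the 44.3% GC of Jak2 and 1.01 at the 60.3% GC of Cish. Whether base composition set the ratios of the genes below was not tested, and the whole-gene ratio of each of the 10 genes is followed by its value after the trend was removed.

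Past a 2-fold ratio, 2 of the 10 genes were higher in replicate 2 (Epor and Cish), against 12.4% of the 12394 genes with at least 10 reads in both libraries. Only 1 of the 10, Jak2, was lower past 2-fold, against 14.5% of those genes, and the other 7 lay within 2-fold. With the GC trend removed none of the 10 lay past 2-fold in the higher direction, where 5.3% of 12332 genes did, or in the lower direction, where 6.07% did. The median log2 ratio of the 10 genes was 0.45 before removal and -0.10 after it, and that of all genes tested was 0.01 and 0.03. Counts of 2 and 1 in 10 lie near those background shares and are no result about this pathway as a whole.

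**Figure D2:**
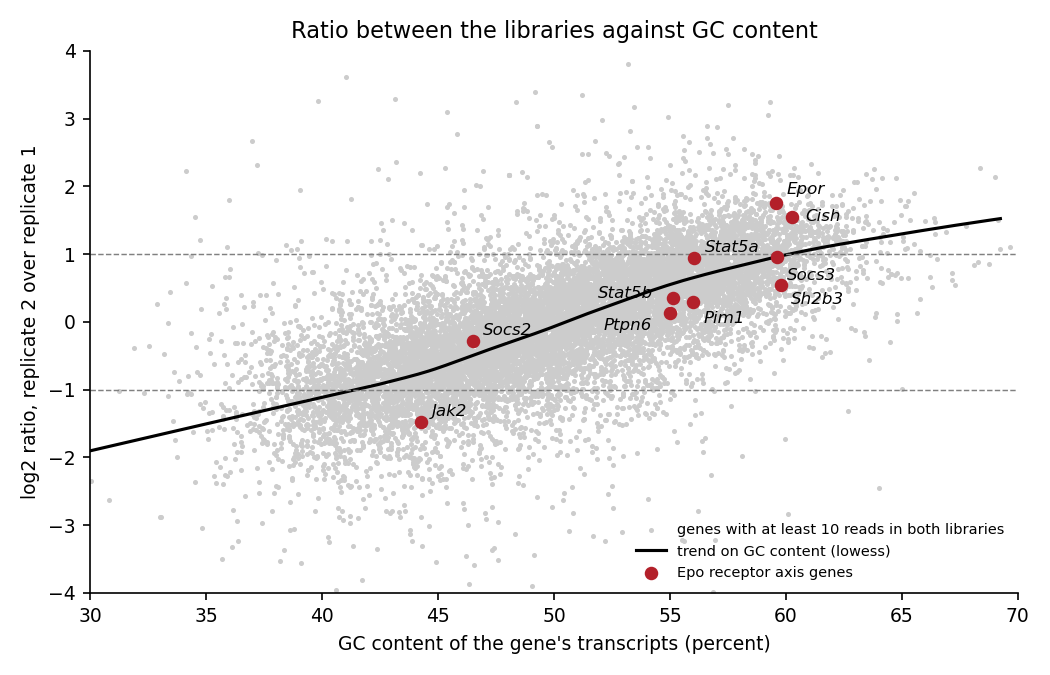
Log2 ratio of replicate 2 over replicate 1 against the GC content of each gene's transcripts in percent; grey points are genes with at least 10 reads in both libraries (23 lie outside the plotted range), the black line is the smoothed trend and dashed lines mark 2-fold. Epor and Cish lie above the trend at the GC-rich end, Jak2 below it at the GC-poor end, and Socs3 on it.

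Epor encodes the receptor chain that binds Epo. The gene (ENSMUSG00000006235.5) lies on chromosome 9, from 21958897 to 21963506 on the minus strand in mm10. It had 34.7 TPM in replicate 1 and 136 in replicate 2, a mean of 85.6 ± 72.0 (SD, n = 2). The reads behind these levels were 1499 and 3335. Replicate 2 was thus high and replicate 1 low. The deposited credibility bounds on TPM (their level is not stated in these sources) ran from 31.4 to 34.7 in replicate 1 and from 121 to 130 in replicate 2. They did not overlap, but they cover estimation within 1 library and not the spread between libraries or cultures. A bound is drawn around a posterior mean and need not hold the TPM itself. Among detected protein-coding genes Epor stood at percentile 74.0 of TPM in replicate 1 and 94.0 in replicate 2. The log2 ratio was 1.76, and 0.80 once the GC trend of 0.96 at its 59.6% GC was removed. The deposited tables list 1 Epor transcript, Epor-201, which held all reads, with a posterior SD (the spread left by reads that fit several transcripts or genes) of 0 reads.

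The bases before the RefSeq start of Epor are shown because they hold the only match to AGATAA, a form of the site bound by GATA factors such as the erythroid GATA1, among the promoter windows of these genes. The window runs from 250 bases before the start to its edge (chr9:21963577-21963826, minus strand, GRCm38.p6), is printed 5′ to 3′, and has the match in capitals, where it reads TTATCT because it is on the opposite strand.
Epor: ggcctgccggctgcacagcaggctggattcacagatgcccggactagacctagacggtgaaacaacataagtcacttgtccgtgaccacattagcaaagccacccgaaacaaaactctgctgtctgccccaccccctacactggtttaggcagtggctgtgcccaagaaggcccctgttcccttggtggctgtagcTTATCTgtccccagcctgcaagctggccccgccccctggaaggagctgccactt
Position -54 before the start is the first base of the match. Searched on both strands, AGATAA occurs in 11.2% of 32544 distinct RefSeq promoter windows that run from 250 bases before to 50 after a start. CACCC, a core of sites bound by KLF factors, occurs in the Epor window at -150 and -121, in windows of 7 of these genes, and in 57.7% of all windows. RefSeq windows were found for 9 of the 10 genes, 12 windows in all, and Socs2 has no entry in the table used. These matches describe letters and not bound sites.

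Jak2 encodes the tyrosine kinase that the Epo receptor depends on. The gene (ENSMUSG00000024789.8) lies on chromosome 19, from 29251828 to 29313080 on the plus strand. It had 57.0 TPM in replicate 1 and 23.6 in replicate 2, a mean of 40.3 ± 23.6 (SD, n = 2), from 6888 and 1614 reads. Here replicate 1 was the high library, and the deposited bounds of 53.1 to 55.6 TPM and of 20.7 to 22.8 TPM did not overlap. As for Epor, they leave out the spread between libraries. Jak2 held rank 1 among the 10 genes in replicate 1 and rank 5 in replicate 2. The log2 ratio was -1.49, and -0.73 with the GC trend removed, at a GC content of 44.3%.

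The receptor and its kinase changed places between the libraries. The ratio of Epor to Jak2 in TPM was 0.608 in replicate 1 and 5.77 in replicate 2, so Jak2 led in one library and Epor in the other. The 2 genes differ by a wide margin in GC content. Over the 9 alternatives run, their ratios between the libraries ranged from 0.80 to 2.04 (log2) for Epor and from -1.52 to -0.73 for Jak2. The signs stayed opposite, but several alternatives could hardly turn them. Other scalings move all genes alike, prior counts matter little at these reads, and both genes have coding models only. GC removal, which moves genes by different amounts, gave the 0.80 and the -0.73. All Jak2 reads were assigned to the transcript Jak2-202 and none to Jak2-201. Of the 45-base windows of Jak2-201, 99.1% also occur in Jak2-202, where 45 is the read length that the deposited lengths imply. The posterior SD of each model was 179 reads in replicate 1 and 17.9 in replicate 2, beside 6888 and 1614 reads on Jak2-202. The upper bounds of Jak2-201 were 4.76 and 0.834 TPM, so the split was uncertain only within such limits. For the gene total the posterior SD was 0 reads in both libraries.

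Within the JAK family, Jak2 held 50.7% of the summed TPM in replicate 1 and 20.5% in replicate 2. Tyk2, which serves interferon and interleukin receptors, had 18.3 and 43.1 TPM. Jak1, a partner in many cytokine receptors, had 28.8 and 25.7, and Jak3, which works with the common gamma chain, had 8.25 and 22.6. Jak2 was above each of the other 3 in replicate 1, and in replicate 2 it was below Tyk2 and Jak1 and above Jak3. The ratio of Jak2 to the other 3 together was 1.03 and 0.259.

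Stat5a and Stat5b encode the transcription factors that JAK2 phosphorylates, a pair of closely similar proteins with overlapping duties. They lie head to head on chromosome 11, Stat5b (ENSMUSG00000020919.7) from 100780731 to 100850724 on the minus strand and Stat5a (ENSMUSG00000004043.10) from 100859351 to 100885169 on the plus strand, with 8626 bases between them. Because they share sequence, a stretch of the coding part of exon 8 of each is shown, to make plain why some reads fit both. The first 60 bases end a run of 324 identical coding bases, the longest between Stat5a-203 and Stat5b-201, and the next 60 open with the base that ends the run, which is in capitals and is the 1 difference in the stretch. The Stat5a stretch is chr11:100874924-100875043, plus strand, and the Stat5b stretch is chr11:100797681-100797800, minus strand, both GRCm38 and 5′ to 3′.
Stat5a-203: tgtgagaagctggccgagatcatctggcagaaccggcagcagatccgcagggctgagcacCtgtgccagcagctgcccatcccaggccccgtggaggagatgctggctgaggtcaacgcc
Stat5b-201: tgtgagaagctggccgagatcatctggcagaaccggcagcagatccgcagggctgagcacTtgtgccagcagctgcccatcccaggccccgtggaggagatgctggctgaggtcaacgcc
Over the whole transcripts, 18.5% of the 3561 windows of 45 bases in Stat5a-203 also occur in Stat5b-201, and 13.2% of the 5018 windows in Stat5b-201 occur in Stat5a-203. A read from such a window is divided between the genes by the estimate, and the posterior SD was the same for both genes, 8.54 reads in replicate 1 and 10.4 in replicate 2. That is small beside their read totals.

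Stat5a had 10.3 TPM in replicate 1 and 22.2 in replicate 2 (16.2 ± 8.43, SD, n = 2), from 771 and 972 reads. Stat5b had 13.6 and 20.2 TPM (16.9 ± 4.71, SD, n = 2), from 1644 and 1383 reads. Stat5b was the higher of the pair in replicate 1 and Stat5a in replicate 2, and their ranges overlap, so neither was set apart as the more abundant. The ratio of Stat5a to Stat5b in TPM was 0.756 and 1.10. In reads without length scaling the mean ratio was 0.586, since Stat5b transcripts are longer. The log2 ratio between the libraries was 0.94 for Stat5a and 0.36 for Stat5b, and with the GC trend removed 0.29 and -0.20, so that the sign of Stat5b turned.

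The transcripts of Stat5a were spread over several models. Stat5a-203 had 6.15 and 9.09 TPM and Stat5a-202 had 2.19 and 9.40, so the leading transcript differed between the libraries; these 2 models carried posterior SDs of 63.4 to 115 reads. The short coding model Stat5a-206 had 0 TPM in replicate 1 and 11.1% of the gene's TPM in replicate 2, from 19.2 reads. The processed transcript Stat5a-205, a model with no coding part, had 11.9% and 3.45%. Stat5b was simpler, with Stat5b-201 at 84.0% and 96.7% of its TPM and Stat5b-202 at 14.9% and 2.62%. Stat5a shares 72 exon bases with Stat3 on the opposite strand, and the sources used here do not give whether strand was used in counting, so reads of genes on opposite strands cannot be told apart here or below.

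Of the STAT genes reported here, neither Stat5a nor Stat5b was the lowest in either library, and Stat3 and Stat6 were above both in each. Stat6, the interleukin 4 factor, had 16.5 and 55.4 TPM, and Stat3, which serves interleukin 6 receptors, had 18.7 and 42.4. Stat2, an interferon factor, had 5.84 and 10.9 TPM, and Stat4 had no reads in either library. The ratio of Stat5a and Stat5b together to Stat3 was 1.28 and 1.00, so the pair equalled or exceeded Stat3.

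**Figure D3:**
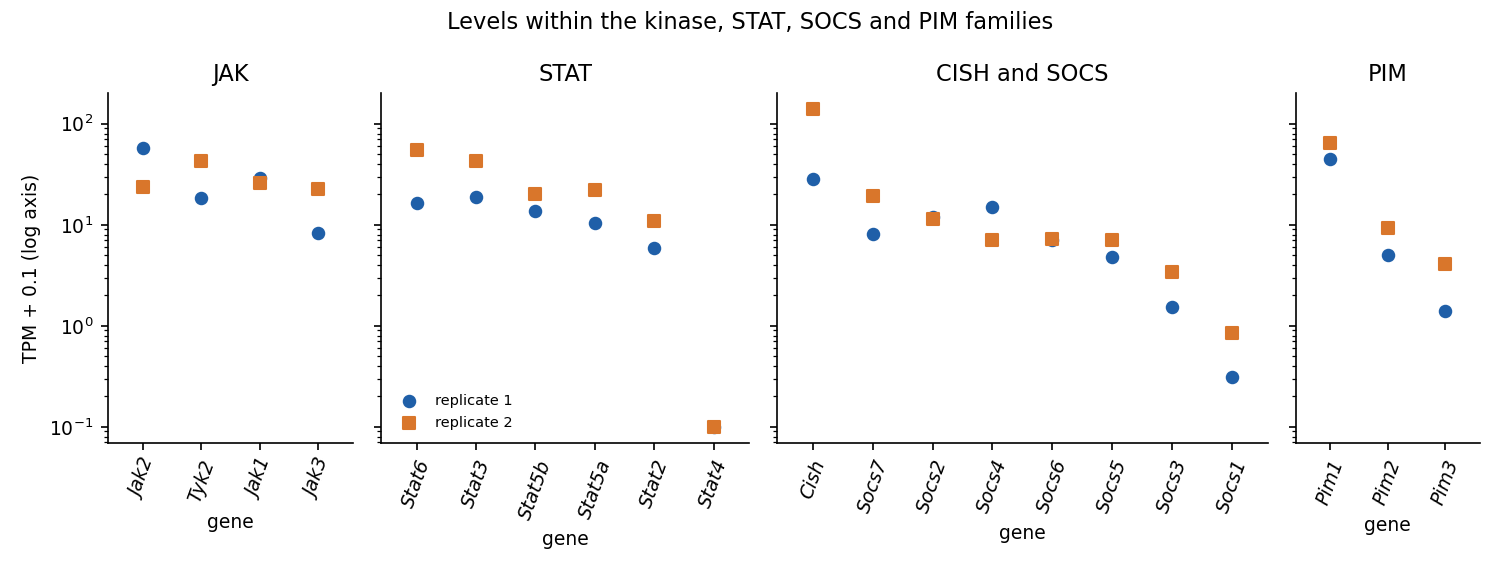
TPM plus 0.1 on a log axis for the JAK, STAT, CISH and SOCS, and PIM families, with circles for replicate 1 and squares for replicate 2, genes ordered by mean TPM. Cish and Pim1 lead their families in both libraries, Jak2 leads its family in replicate 1 alone, and Stat5a and Stat5b sit below Stat6 and Stat3 and above Stat2 among the STAT genes drawn.

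Among the feedback genes the mean levels ran from among the highest of the 10 to the lowest. Cish encodes the SOCS-family protein that STAT5 induces and that binds the phosphorylated Epo receptor. The gene (ENSMUSG00000032578.7) lies on chromosome 9, from 107296026 to 107302784 on the plus strand. It had 28.3 TPM in replicate 1 and 139 in replicate 2, a mean of 83.4 ± 78.0 (SD, n = 2), from 557 and 1075 reads. Replicate 2 was the high library, as for Epor. The log2 ratio was 1.55, and 0.54 with the GC trend removed.

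Most of the Cish level was on transcript models that encode no protein. Cish-205, annotated as a processed transcript of 371 bases with 3 exons, had 17.1 TPM in replicate 1 and 112 in replicate 2, which is 60.6% and 80.9% of the gene's TPM. Its share of the gene's reads was lower, 24.4% and 46.7%, since a short model turns few reads into a high TPM. Being weighted by TPM, the GC content used for Cish rests mostly on this model, which has 60.6% GC. The longer models Cish-202 and Cish-204 have 53.1% and 55.5%, and the trend removal was not repeated with weights by reads. Of the 371 bases of Cish-205, 312 are also coding bases of Cish-201 or Cish-204, so most of it cannot be told from the coding transcripts by sequence. Another overlap is with the antisense gene Gm17041, which itself had 16.6 and 44.9 TPM and lies opposite 79 bases of Cish-205. It also lies opposite coding models, by 479 bases of Cish-201, 479 of Cish-204 and 131 of Cish-203. Each of these models shares 103 bases with a further antisense gene, Gm17040, at 1.1 and 3.51 TPM. The protein-coding models of Cish together had 9.53 and 22.0 TPM, or 33.7% and 15.8% of the total, and the largest of them by TPM was Cish-203 at 6.77 and 16.4. On the protein-coding models alone the log2 ratio between the libraries was 0.85 (an alternative chosen after the data were seen). The mean level of those models was 15.7 TPM, far under the 83.4 of the whole gene.

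A short stretch at the RefSeq start of Cish is shown because it carries a pair of matches to TTCNNNGAA, the palindrome that STAT5 dimers bind. It covers positions -5 to 25 (chr9:107296654-107296683, plus strand, GRCm38.p6), 30 bases 5′ to 3′, with the matches in capitals.
Cish: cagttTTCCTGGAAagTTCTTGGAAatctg
The matches begin at positions 1 and 12 from the RefSeq start, with 2 bases between them. At least 1 match was present in 8.33% of the 32544 windows, and 2 or more in 0.461%. This RefSeq start lies inside the first exon of the Ensembl model Cish-201, which starts upstream of it and had 24.1 reads in replicate 1 and none in replicate 2.

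Socs3 encodes a protein that blocks JAK kinases and binds the phosphorylated Epo receptor. It is shown next because it was the only other of the 9 genes with a window to match TTCNNNGAA. Socs2 had no window and was not searched. The 1 match starts at -154, in capitals, among the 250 bases before the RefSeq start of Socs3 (chr11:117969367-117969616, minus strand, GRCm38.p6).
Socs3: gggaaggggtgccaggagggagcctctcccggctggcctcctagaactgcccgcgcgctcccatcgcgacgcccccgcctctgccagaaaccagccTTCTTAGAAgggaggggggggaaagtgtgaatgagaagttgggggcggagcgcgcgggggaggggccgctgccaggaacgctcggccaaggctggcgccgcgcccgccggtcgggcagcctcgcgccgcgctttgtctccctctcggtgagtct
The gene (ENSMUSG00000053113.3) lies on chromosome 11, from 117966079 to 117970047 on the minus strand. It was the lowest of the 10 genes in both libraries, with 1.43 TPM in replicate 1 and 3.33 in replicate 2 (2.38 ± 1.34, SD, n = 2), from 73 and 94 reads. In the order by mean TPM the 2 genes with a match were at ranks 2 (Cish) and 10 (Socs3). The place of Cish was not stable, with rank 5 in replicate 1 and ranks 7 and 5 on coding transcripts alone. The log2 ratio of Socs3 was 0.96, equal to the trend at its GC content, and 0.0021 with the trend removed. Socs3-201 held 80.6% and 78.4% of its TPM and the processed transcript Socs3-202 held 19.4% and 21.6%, the latter from 3 and 4.39 reads.

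Socs2 encodes a further STAT5-induced inhibitor, best known for limiting growth hormone signalling. The gene (ENSMUSG00000020027.14) lies on chromosome 10, from 95385362 to 95417180 on the minus strand. It had 11.8 TPM in replicate 1 and 11.2 in replicate 2 (11.5 ± 0.396, SD, n = 2), from 647 and 349 reads, and so was nearly level between the libraries. The log2 ratio was -0.28, and 0.21 with the GC trend removed. The split among its coding transcripts was uncertain: Socs2-213 had 77.6% and 45.2% of TPM, Socs2-214 had 0% and 28.0%, and Socs2-201 had 14.7% and 16.9%. Of the 45-base windows of Socs2-214, 91.9% occur in Socs2-213, and their posterior SDs were 47.4 to 90.8 reads.

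Within the CISH and SOCS family, Cish held 37.1% and 71.3% of the summed TPM, Socs2 15.5% and 5.77%, and Socs3 1.88% and 1.71%. The ratio of Cish to Socs1, Socs2 and Socs3 together was 2.11 in replicate 1 and 9.06 in replicate 2. On protein-coding transcripts alone it was 0.779 and 1.63, and in reads without length scaling 0.767 and 2.36, so in replicate 1 the ratio was below 1 under both. Socs1, an interferon-induced JAK inhibitor, was at 0.21 and 0.75 TPM and was the only family member under 1 TPM. Of those not tied to STAT5 by textbook knowledge, Socs4 had 14.8 and 6.91 TPM, Socs5 4.72 and 6.99, Socs6 6.95 and 7.17, and Socs7 8.01 and 19.4. With all its transcripts counted, Cish exceeded each other family member in both libraries. Its coding models alone, at 9.53 TPM in replicate 1, were below the coding models of Socs2 at 10.9. They were also below the 14.8 TPM of Socs4, a value that counts all Socs4 transcripts.

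Pim1 encodes a serine kinase that needs no activation step, so its amount sets its activity, and it is a STAT5 target that promotes survival. The gene (ENSMUSG00000024014.7) lies on chromosome 17, from 29490753 to 29496112 on the plus strand. It had 44.8 TPM in replicate 1 and 63.9 in replicate 2 (54.4 ± 13.5, SD, n = 2), from 2818 and 2270 reads. The libraries were close, and the log2 ratio of 0.30 turned to -0.36 with the GC trend removed. Pim1 held rank 2 among the 10 genes in replicate 1 and rank 3 in replicate 2. It held 87.9% and 82.8% of the PIM family's TPM, with Pim2 at 4.87 and 9.28 TPM and Pim3 at 1.29 and 4.03. All its reads fell on Pim1-201, and the antisense gene Gm26885, which shares 488 of its exon bases, had 0 and 0.38 TPM.

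Ptpn6 encodes SHP-1, the phosphatase that docks on the Epo receptor and removes phosphate from JAK2. The gene (ENSMUSG00000004266.11) lies on chromosome 6, from 124720707 to 124738714 on the minus strand. It had 41.6 TPM in replicate 1 and 40.6 in replicate 2 (41.1 ± 0.757, SD, n = 2), from 1476 and 1059 reads, the smallest relative spread of the 10 genes at a coefficient of variation of 1.84%. The log2 ratio was 0.13, and -0.42 with the GC trend removed, so the evenness in TPM was not kept on every scale. The related phosphatase Ptpn11, which on the contrary helps many receptors to signal, had 48.5 and 51.5 TPM, and the ratio of Ptpn6 to Ptpn11 was 0.858 and 0.788. On protein-coding transcripts alone, a comparison added after the data were seen, it was 1.52 and 1.46, so the order of these genes turned. Within Ptpn6 the coding transcript Ptpn6-202 held 49.9% of TPM in replicate 1 and 77.5% in replicate 2, while the retained-intron model Ptpn6-204 held 33.4% and 11.2%. In reads Ptpn6-204 was a small part, 8.61% and 2.21%.

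Sh2b3 encodes LNK, an adaptor that binds JAK2 and dampens it, and whose loss is known to favour red cell overproduction. The gene (ENSMUSG00000042594.12) lies on chromosome 5, from 121815488 to 121837646 on the minus strand. It had 4.52 TPM in replicate 1 and 9.78 in replicate 2 (7.15 ± 3.72, SD, n = 2), from 466 and 446 reads. The log2 ratio was 0.54, and -0.43 with the GC trend removed. The 2 libraries placed its reads on different transcripts. In replicate 1, 89.9% of TPM was on Sh2b3-205, a model marked for nonsense-mediated decay (the pathway that destroys messages with an early stop), and 10.1% on the coding Sh2b3-202. In replicate 2 the order was turned, with 24.5% on Sh2b3-205, 51.6% on Sh2b3-202 and 23.9% on the short coding Sh2b3-206. That last share came from 19.15 reads, 4.29% of the gene's reads. Sh2b3-206 has 70.6% GC, against 57.2% for Sh2b3-205 and 58.2% for Sh2b3-202, and it enters the GC content of Sh2b3 by its TPM.

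The coding level of Sh2b3 was 0.46 TPM in replicate 1 and 7.39 in replicate 2. Its log2 ratio on coding transcripts alone was 3.31, against 0.54 for the whole gene (again chosen after the data were seen). Of the 45-base windows of Sh2b3-205, 92.4% also occur in Sh2b3-202, and the share in the other direction was not computed. In replicate 1 the TPM bounds of Sh2b3-205 (3.01 to 4.43) and Sh2b3-202 (0.00477 to 1.20) did not overlap. In replicate 2 they did, at 0.674 to 4.10 and 2.23 to 6.17. The posterior SD of Sh2b3-205 was 34.7 reads of 421 in replicate 1 and 57.9 of 140.0 in replicate 2. For the coding Sh2b3-202 it was 35.2 reads of 45.9 in replicate 1 and 62.4 of 287 in replicate 2, so the coding ratio rests on an uncertain level in replicate 1. Sh2b3 shares 99 exon bases with Atxn2 on the opposite strand, a gene at 99.9 and 73.6 TPM. In the SH2B family, Sh2b1, which unlike LNK assists JAK2, had 6.27 and 19.1 TPM and exceeded Sh2b3 in both libraries, and Sh2b2 had 0 and 0.03.

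**Figure D4:**
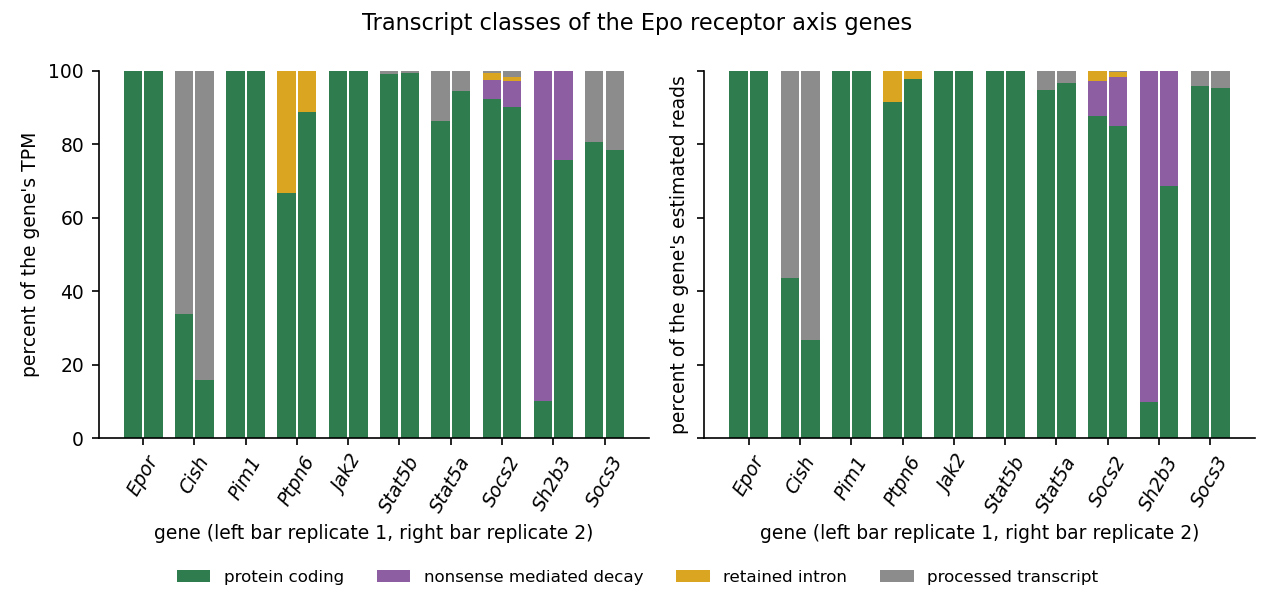
Percent of each gene's TPM (left panel) and of its estimated reads (right panel) on protein-coding, nonsense-mediated decay, retained-intron and processed-transcript models, with the left bar of each pair for replicate 1 and the right bar for replicate 2. Epor, Pim1 and Jak2, for which only coding models are listed, are fully coding in both. Cish is mostly on processed transcripts in both panels, and Sh2b3 is mostly on the decay model in replicate 1 alone.

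Over the 10 genes the tables list 53 transcripts, of which 33 had reads in either library and 21 held at least 10% of their gene's TPM in either. The leading transcript was the same in both libraries for 8 genes, and differed for Stat5a and Sh2b3. Among the 8, Epor and Pim1 have 1 listed transcript each and could not differ. In 5 genes (Epor, Jak2, Stat5b, Socs2 and Pim1) protein-coding transcripts held at least 90% of TPM in both libraries. By share of reads 7 genes did, Socs2 leaving (87.8% and 85.0%) and Stat5a, Socs3 and Ptpn6 joining. For Epor, Pim1 and Jak2 only coding models are listed, so their full coding share was fixed by the annotation and is no result. The shares of all genes that keep their leading transcript, or that reach 90% on coding transcripts, were not computed. These counts therefore describe the 10 genes and do not set them apart from other genes. Counted on coding transcripts alone, Jak2 was the first of the 10 in replicate 1 and Epor in replicate 2, and Cish moved to ranks 7 and 5.

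The rest of the pathway was read from 89 other genes listed by role. Of these, 64 had at least 1 TPM in both libraries, beside 45.5% of all protein-coding genes. Their median mean level was 9.33 TPM against 0.6 over protein-coding genes. Of 69 with enough reads for a ratio, 14 were higher and 4 lower past 2-fold in replicate 2, beside 12.4% and 14.5% of all genes tested. With the GC trend removed 1 was higher and 0 lower, beside 5.3% and 6.07%, and the 1 was Erfe, the gene of the iron hormone erythroferrone, an Epo target at 0.87 and 4.27 TPM and a log2 ratio of 1.72. Epo itself had 0 reads in both libraries, as did Thpo, Il3 and Csf2, the hormones of sister receptors that also use JAK2 and STAT5. Kitl, the stem cell factor gene, had 0.01 and 0.07 TPM, and Osm, the STAT5 target that encodes oncostatin M, had 0.92 and 2.23. Epor and Jak2 were therefore detected while Epo was not detectable at this depth, and the labels name no added Epo.

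Of 16 other receptors, 6 were detected, beside 45.5% of all protein-coding genes. Csf2rb and Csf2rb2, the beta chains of the interleukin 3 family that also signal through JAK2, had 116 and 206 TPM and 72.3 and 134 TPM. They are similar copies, and the posterior SDs of their reads were 44.5 to 53.3, against 7995 to 13321 reads. Il6st, the common chain of the interleukin 6 family, had 15.5 and 11.8 TPM, and the lowest, the prolactin receptor gene Prlr, had 0.01 and 0.02. Beside the Epor levels of 34.7 and 136 TPM, Csf2rb was higher in both libraries. Kit, the stem cell factor receptor, had 0.1 and 0.01 TPM.

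The adaptors that carry the signal to other branches were all detected, 16 of 16, led by the kinase gene Btk (64.0 and 53.4 TPM), the adaptor genes Shc1 (37.5 and 69.3) and Grb2 (53.5 and 40.2), with Gab2 the lowest (3.2 and 3.59). Of 11 phosphatase, PIAS and ubiquitin ligase genes beside Ptpn6, 10 were detected, Ptpn2 (93.7 and 29.1 TPM), Ptpn11 and Pias1 (61.9 and 33.7) being the highest and Dusp6 the lowest (0.34 and 0.4). All 8 genes of receptor folding and traffic were detected, Hsp90ab1, a chaperone on which JAK2 depends, at 2710 and 969 TPM, Ap2a1 at 34.7 and 57.1, Rab5a at 40.0 and 44.1, and Zdhhc9 at 2.98 and 5.17. Like Jak2, Ptpn2 and Hsp90ab1 had the higher TPM in replicate 1. Over all protein-coding genes 45.5% were detected.

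Genes that Epo or STAT5 is known to induce were detected in 10 of 16 cases beside Cish, Socs2, Socs3 and Pim1. The share over all protein-coding genes was 45.5%. The highest of the 16 were Id1, an inhibitor of differentiation factors (76.3 and 205 TPM), Gfi1b, an erythroid repressor (62.0 and 138), and Tfrc, the transferrin receptor (125 and 65.2). At the other end, Lcn2 and Serpina3g had 0 reads. Of 13 such genes with a ratio, 7 were higher past 2-fold in replicate 2 and 0 lower (12.4% and 14.5% over all genes tested). With the GC trend removed 1 of the 13, Erfe, was higher and 0 lower (5.3% and 6.07% over all genes).

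The 12 erythroid markers were all detected (median 423 TPM, summed TPM 28574 and 77057), where 45.5% of all protein-coding genes were. Of the markers of other cells, 5 of 8 for megakaryocytes (summed TPM 96.5 and 190), 2 of 10 for granulocytes and macrophages (10.3 and 28.4), 1 of 8 for lymphocytes (6.59 and 5.22), 1 of 7 for stem cells (11.5 and 10.3) and 0 of 7 for mast cells (0.6 and 0.92) were detected. The erythroid, megakaryocyte and granulocyte sums, like Epor, were all higher in replicate 2. Among the megakaryocyte markers, Itga2b (74.7 and 149 TPM), Pf4 (13.7 and 20.1), Gp9 (2.96 and 12.3), Gp1ba (3.6 and 7.31) and Vwf (1.38 and 1.82) were detected, while Gp6 and Treml1 had 0 TPM. Among those of granulocytes and macrophages, Prtn3 (6.11 and 19.8) and Cd68 (3.17 and 5.66) were detected, while Elane, S100a8 and S100a9 had 0. The part of these cell types in the levels above was not tested.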

How the data were processed

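PolyA RNA of DMSO-treated MEL cells was measured in 2 libraries. Per the file headers, the authors deposited, for genes and transcripts, expected counts (estimated reads, unscaled), TPM, FPKM, posterior means and SDs, bounds on TPM, and each transcript's percent of its gene's expression. The build was mm10 and the annotation GENCODE M4, per the deposited file lists. The sources used here do not give the program or aligner. Estimation divides shared reads among similar models, and short models gain high TPM from few reads.

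Symbols and coordinates came from GENCODE M21 by Ensembl ID (42462 of 43346 genes matched), and transcript sequences from the same release; 50 of the 53 transcripts of the genes described had equal lengths in both. Rows that name no gene held 0.0296% and 0.0465% of reads and stayed out of scaling. Expected counts were rounded to compute TMM factors with edgeR 4.0.16 (at least 10 counts in both libraries) in R 4.3.3, and DESeq2 1.42.0 gave the alternative size factors. A lowess fit (span 0.3, with 3 iterations) of the log2 ratio on GC content used protein-coding genes averaging 100 counts or more, 99.9% of which had a GC value. Steps were tested on simulated data. Python 3.11.15, pandas 2.3.3, numpy 2.4.6, statsmodels 0.14.6 and matplotlib 3.10.9 were used. Promoter windows came from RefSeq (GRCm38.p6).

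The genes and lists were chosen with earlier results of these data known. The text names all 10 genes, every member of the JAK, STAT, SOCS, PIM and SH2B families (1 is not reported here) and of the ligands, the 3 highest and 1 lowest by mean TPM of longer lists, and transcripts with at least 10% of their gene's TPM; Kit, Erfe, Cish-201, Jak2-201, the overlapping genes and the markers of other cell types were added after their values were seen. Alternatives were other scalings, prior counts of 0.5 and 5, TPM with pseudocounts of 0.1 and 1, GC removal, detection at 0.5 and 5 TPM, posterior means, FPKM, coding transcripts and each library alone.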

Additional observations from a re-analysis of the deposited data

How the results depend on the processing

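The count of genes higher past 2-fold in replicate 2, 2 in the report, was 4 with library totals, 5 with TPM and a pseudocount of 0.1, and 0 with the GC trend removed; the count lower past 2-fold, 1 in the report, was 0 with the GC trend removed. Library totals moved the median log2 ratio of all genes tested from 0.01 to 0.28, and TPM with a pseudocount of 0.1 moved it to 0.23. Relative to those shifts Stat5a (1.22 and 1.11) and Socs3 (1.24 and 1.17), and Sh2b3 under TPM (1.10), were not beyond 2-fold. The mean ratio of Stat5a to Stat5b, 0.926, was 0.586 from expected counts without length scaling. The mean ratio of Cish to Socs1, Socs2 and Socs3 together, 5.58, was 1.20 on protein-coding transcripts and 1.56 from expected counts. Of 90 alternative log2 ratios of the 10 genes (9 for each), 79 kept their side of 2-fold, 7 moved past it and 4 fell within it; the sign changed under an alternative for 5 genes (Pim1, Ptpn6, Sh2b3, Socs2 and Stat5b). The cause of these shifts was not tested. Each ratio rests on 1 library per side, so its precision is unknown; at the depth of replicate 2, Socs3 rested on 94 reads. No paired analysis was possible because there is 1 group.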
